A study of Mus musculus with 10 samples.

Results

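Interferon-stimulated genes are the genes that cells switch on when interferons, the cytokines of antiviral and immune alarm, bind their receptors. The set described here holds 41 such genes of the type I and type II response, named by symbol with no measured value in the rule, of 22815 gene symbols in the table. All 41 symbols were found in the table, and 35 of them passed the filter on low counts and were tested. The 6 that did not pass were Ifit2, Ifit3, Oas1a, Oas2, Mx1 and Mx2.

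The libraries are bulk RNA-seq of mast cells, the tissue-resident immune cells that release histamine, proteases and lipid mediators in allergy. The mice were C57BL/6, wild type and 5 to 7 weeks old, and their lower airway mast cells were sorted as 2 populations, labelled B7hi and B7low. B7 stands for integrin β7 in the literature on these cells, where β7-high mast cells are called inducible and β7-low ones constitutive. Mice were challenged intranasally with 20 µL of saline, either with 3 µg of house dust mite (HDM) extract, an allergen preparation, or without it, 2 times a week for 3 weeks. The 4 groups are B7hi with HDM (n = 3), B7low with HDM (n = 3), B7hi with saline (n = 2) and B7low with saline (n = 2). Whether replicates are separate animals or pools is not stated in the labels, and the p-values therefore rest on a spread between libraries that may be technical in part.

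Type I interferons signal through the receptor chains IFNAR1 and IFNAR2 and the kinases JAK1 and TYK2. STAT2 and IRF9 are parts of the factor ISGF3, which this pathway activates and which binds the interferon-stimulated response element (ISRE) of target genes. Type II interferon (interferon gamma) signals through IFNGR1 and IFNGR2 to genes that carry the gamma-activated site (GAS). Many target genes keep a low level without added interferon, and several of them, such as Irf1, also respond to other signals.

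The promoter sequences of 5 of the genes that differed between the populations are shown here because they carry these elements at different places. They are the 250 bases before the annotated gene start, from RefSeq on GRCm38.p6, written 5′ to 3′ in the direction of the gene. Capitals mark the ISRE core (GAAA, 2 bases of any kind, GAAA) and the GAS core TTCNNNGAA, searched on both strands, with overlapping matches joined. Rsad2 lies on the minus strand (chr12:26456453-26456702), Gbp3 on the plus strand (chr3:142559794-142560043), Irf1 on the plus strand (chr11:53769764-53770013), Bst2 on the minus strand (chr8:71537473-71537722) and Stat2 on the plus strand (chr10:128270248-128270497).
Rsad2: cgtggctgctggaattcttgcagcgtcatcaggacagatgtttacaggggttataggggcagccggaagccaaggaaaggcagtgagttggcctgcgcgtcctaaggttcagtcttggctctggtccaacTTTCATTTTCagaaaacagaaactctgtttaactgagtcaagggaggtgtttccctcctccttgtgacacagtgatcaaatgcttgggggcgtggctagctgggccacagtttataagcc
Gbp3: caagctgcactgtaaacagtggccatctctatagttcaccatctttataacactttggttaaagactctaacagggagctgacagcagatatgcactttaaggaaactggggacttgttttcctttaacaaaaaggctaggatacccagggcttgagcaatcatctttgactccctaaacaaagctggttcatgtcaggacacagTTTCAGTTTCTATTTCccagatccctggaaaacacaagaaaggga
Irf1: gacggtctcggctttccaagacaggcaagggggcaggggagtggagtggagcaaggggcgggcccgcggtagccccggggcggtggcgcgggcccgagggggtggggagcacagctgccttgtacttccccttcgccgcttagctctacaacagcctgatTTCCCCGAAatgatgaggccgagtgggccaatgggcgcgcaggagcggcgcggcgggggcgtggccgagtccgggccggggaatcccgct
Bst2: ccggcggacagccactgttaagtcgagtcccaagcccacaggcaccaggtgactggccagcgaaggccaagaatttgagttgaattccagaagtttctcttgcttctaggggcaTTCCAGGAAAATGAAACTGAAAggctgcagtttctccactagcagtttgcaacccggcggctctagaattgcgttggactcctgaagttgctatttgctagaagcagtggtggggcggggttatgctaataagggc
Stat2: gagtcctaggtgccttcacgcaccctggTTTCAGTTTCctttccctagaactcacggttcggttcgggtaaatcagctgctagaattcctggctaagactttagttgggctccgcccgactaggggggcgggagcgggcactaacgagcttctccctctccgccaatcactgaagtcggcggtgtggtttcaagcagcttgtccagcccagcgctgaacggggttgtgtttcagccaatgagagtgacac

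In the Rsad2 promoter the capitals are 1 ISRE core that begins 120 bases before the start. In Gbp3 they are 2 overlapping ISRE cores that begin 45 and 39 bases before it, and in Stat2 1 ISRE core at 222 bases. In Irf1 they are 1 GAS core at 90 bases, and in Bst2 a GAS core at 136 bases runs into 2 ISRE cores at 130 and 124 bases. Ifitm3, also called between the populations, had its ISRE cores after the start, at bases 3 and 20, and Ifitm1 had neither core in its window. The window searched ran from 250 bases before to 50 after the start and was on hand for 32 of the 41 genes, the others being Rtp4, Dhx58, Ifi27l2a, Usp18, Parp14, Zbp1, Mx1, Oas2 and Mx2. The ISRE core was in the window of 18 of the 32 genes (56.2%), against 3.99% of 27025 genes with a window. The GAS core was in the window of 10 of the 32 (31.2%), against 9.55% of all genes. A match of letters is a description of the sequence and not evidence of binding.

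Levels are in CPM, the usual scaling of a count by its library total, with the TMM-scaled library size as the total. Total counts ran from 525983 to 1725818 per library, and both B7low saline libraries were shallow (652736 and 639906). A count of 0 therefore allows up to 5.25 and 5.02 CPM in the B7low saline libraries (3 counts over the scaled size), and between 1.57 and 5.87 CPM elsewhere. These limits cover counting error only. The libraries B7hi HDM 2 and B7low saline 2 stood apart, with 12133 and 6956 CPM of the nuclear RNA Kcnq1ot1 against 806 to 2794 CPM in the other 8, so results are also given without both. The ribosomal RNA precursor Rn45s took 22.7%, 26.3% and 23.6% of the counts in B7hi HDM and 24.1%, 21.9% and 24.9% in B7low HDM. With saline it took 19.7% and 21.6% in B7hi and 27.2% and 28.9% in B7low, the highest shares of all. The transcript of integrin β7 itself, Itgb7, did not follow the labels with HDM, at 861, 341 and 688 CPM in B7hi HDM against 550.3, 731 and 919 CPM in B7low HDM. With saline it had 681 and 1011 CPM in B7hi against 603 and 570.2 CPM in B7low, and it was not called in either challenge (edgeR adjusted p = 0.828 with HDM and 0.441 with saline). The sum of 6 mast cell markers (Cpa3, Kit, Fcer1a, Ms4a2, Hdc and Gata2) was 11114 to 21113 CPM in the 5 B7hi libraries and 24017 to 43217 CPM in the 5 B7low ones. Cpa3 was the largest term of this sum in every library, at 4699 to 8224 CPM in B7hi and 12430 to 26631 CPM in B7low. Of these markers Cpa3, Fcer1a and Hdc were lower in B7hi averaged over challenges (log2 fold changes -1.58, -1.12 and -1.15, edgeR adjusted p 0.000136, 0.00575 and 0.0111 in that order). Kit, Ms4a2 and Gata2 were not called (log2 fold changes -0.45, -0.13 and -0.43, edgeR adjusted p 0.202, 0.728 and 0.149 in that order). The eosinophil markers Epx and Prg2 were at 0 in every library. Markers of other cells did appear. The sum of 4 B cell markers was 542, 341 and 76.5 CPM in B7low HDM, against 3.75 to 17.6 CPM in B7hi HDM, and with saline it was 9.82 and 61.1 CPM in B7hi and 17.5 and 21.7 CPM in B7low. The sum of 3 T cell markers was 67.9 CPM in B7hi saline 2 and 46.6 CPM in B7hi HDM 3, against at most 6.99 CPM in the other 8. For 4 endothelial markers the sum was 366, 163 and 98.6 CPM in B7low HDM, against 59.4 to 157 CPM in the other groups. Cldn5 made up 165 CPM of it in B7low HDM 1. For 3 epithelial markers it was 57.5 CPM in B7low HDM 3 and at most 11.7 CPM elsewhere. In bulk samples, fewer cells of a type and less RNA per cell cannot be told apart.

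One gene dominated the set. Ifitm1, an interferon-induced membrane protein that hinders virus entry, averaged 564 CPM per kilobase of exon over the 10 libraries. Irf1, an interferon-induced transcription factor, followed at 48.3 and Bst2, the virus-tethering protein tetherin, at 42.9 CPM per kilobase. Samd9l, an antiviral restriction factor, stood at 33.1 and Ifitm3, a relative of Ifitm1, at 31.0 CPM per kilobase. The lowest were Mx2 and Ifit3, at 0.375 and 0.370 CPM per kilobase. The summed CPM of the 41 genes was 1268 to 3208 per library, and Ifitm1 made up 4% to 49.3% of it.

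The set did not share a single order of groups. The highest group mean was in B7low HDM for 19 of the 41 genes, in B7hi HDM for 12, in B7low saline for 6 and in B7hi saline for 4. The lowest was in B7low saline for 19, in B7hi saline for 17, in B7hi HDM for 4 and in B7low HDM for 1. Single libraries also weighed on these means, since B7hi HDM 3 and B7low HDM 2 each held the highest value of 13 genes. These 2 libraries had 1419336 and 1501225 total counts, well above the shallowest. The 2 deepest, B7hi saline 2 and B7hi HDM 1 (1725818 and 1699667 total counts), held the highest value of 0 genes.

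**Figure D1:**
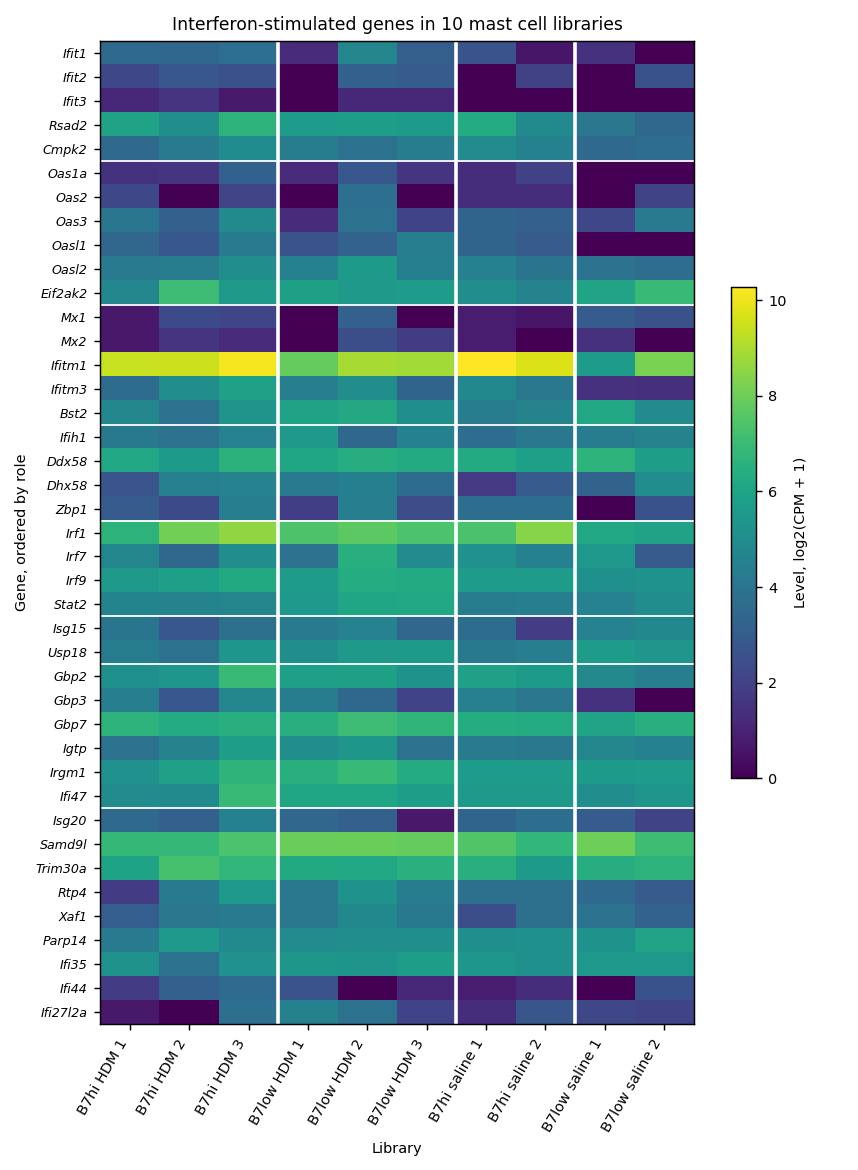
Levels of the 41 genes in each of the 10 libraries, as log2(CPM + 1), grouped by role. Ifitm1 is the brightest row in every library except B7low HDM 1 and B7low saline 1, where Samd9l is brighter, and the rows of Ifit2, Ifit3, Oas1a, Oas2, Mx1 and Mx2 are among the darkest.

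Between the populations, 8 of the 35 tested genes differed when the B7hi minus B7low difference was averaged over both challenges. Ifitm1, Gbp3, Irf1, Ifitm3 and Rsad2 were higher in B7hi cells, and Bst2, Stat2 and Usp18 were lower (edgeR's quasi-likelihood test, Benjamini-Hochberg adjusted p under 0.05 over 10533 genes). That is 22.9% of the set, against 11.9% of all tested genes (5.8% higher and 6.08% lower). Over the set, 18 of 35 log2 fold changes were above 0 (51.8% of all genes), and the median was 0.01, against 0.03 for all genes. Without B7hi HDM 3, 12 of 34 were above 0 and the median was -0.33. The set was split between the directions, and an unadjusted p under 0.05 was reached by 7 higher and 5 lower genes (13.6% and 12.1% of all genes). With library size alone in place of TMM, the median of all genes moved to 0.15 and the same 5 genes stayed called as higher while the 3 lower calls were lost. The split of all calls was then 888 higher and 559 lower, against 611 and 640 with TMM.

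Within each challenge fewer genes passed. With saline, 1 of 35 was called, Irf1, higher in B7hi cells, against 6.54% of all tested genes (2.91% higher and 3.64% lower). The 2-library groups did not overlap for 15 genes higher and 10 lower in B7hi (28.5% and 23.4% of all genes), and an unadjusted p under 0.05 was reached by 6 higher and 5 lower (11.4% and 9.84%). With library size alone the split of all calls with saline was 655 higher and 310 lower, against 306 and 383 with TMM, and the median of all genes moved to 0.30 from 0.03 on the log2 scale. The share of Rn45s was higher in both B7low saline libraries than in both B7hi saline ones, as given above, and its part in the saline results was not tested. With HDM, 1 of 35 was called, Stat2, lower in B7hi cells, against 2.84% of all tested genes (0.693% higher and 2.15% lower). Groups did not overlap for 1 gene higher and 3 lower with HDM (9.76% and 10.7% of all genes), and 0 higher and 3 lower had an unadjusted p under 0.05 (5.7% and 7.91%). The lower mast cell marker sum in B7hi cells and the high B cell marker sum in B7low HDM moved with these population differences, and their part in them was not tested.

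Of the 8 called genes, Ifitm1 separated the populations in every library. Ifitm1 (chr7:140967221-140969825, GRCm38) had 681, 712 and 1142 CPM in B7hi HDM, against 230.4, 492 and 463 CPM in B7low HDM, and 1242 and 863 CPM in the B7hi saline libraries, against 50.7 and 293 CPM in B7low saline. All 5 B7hi libraries were above all 5 B7low libraries, the only gene of the 35 so placed, against 4.46% of all genes above and 4.94% below. The log2 fold change averaged over challenges was 1.85 ± 0.43 (SE, edgeR adjusted p = 0.0218). Within saline it was 2.61 ± 0.69 (adjusted p = 0.0539) and within HDM 1.09 ± 0.53 (adjusted p = 0.413), so neither challenge passed alone. Without B7hi HDM 2 and B7low saline 2 the averaged value was 2.77 (adjusted p = 2.62e-04).

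Ifitm3 (chr7:141009586-141010770), which traps viruses in endosomes, was far lower in level. It had 11.3, 33.3 and 57.5 CPM in B7hi HDM and 20.3, 33.2 and 8.85 CPM in B7low HDM, and 26.5 and 16.2 CPM in B7hi saline and 1.75 and 1.67 CPM in B7low saline. The saline groups did not overlap and the HDM groups did. With saline there were 66 counts in B7hi and 2 in B7low, a ratio of 11.9 (exact 95% counting interval 3.17 to 100.5). The averaged log2 fold change of 2.13 ± 0.61 passed (edgeR adjusted p = 0.0336), and its size depends on those 2 counts. Without the 2 libraries that stood apart the adjusted p was 0.167. The neighbouring Ifitm2, not in the set, had 347 ± 63.7 CPM in the 3 B7hi HDM libraries and 165 ± 76.9 CPM in the 3 B7low HDM ones (mean ± SD). In saline the means were 441 ± 170.4 CPM for the 2 B7hi and 141 ± 34.2 CPM for the 2 B7low libraries. Its averaged log2 fold change was 1.35 ± 0.27 (adjusted p = 0.00356) and it stayed called under every alternative tried.

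Bst2 (chr8:71534255-71537456) went the other way from the IFITM genes. It had 26.3, 13.7 and 39.04 CPM in B7hi HDM, against 59.6, 73.5 and 34.1 CPM in B7low HDM, and 19.6 and 22.97 CPM in the B7hi saline libraries, against 68.2 and 30.1 CPM in B7low saline. The HDM groups overlapped by 1 library each and the saline groups did not overlap. The averaged log2 fold change was -1.10 ± 0.34 (edgeR adjusted p = 0.0432), and without the 2 libraries that stood apart it was -1.24 (adjusted p = 0.0226). Mx1 and Mx2, dynamin-like GTPases that block virus replication, had 29 and 17 counts in all, and C57BL/6 mice are known to carry a defective Mx1.

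Among the IFIT genes, which bind foreign RNA, and their companions, Rsad2 was called. Rsad2 (chr12:26442746-26456452) encodes viperin, an enzyme that makes a chain-terminating nucleotide against viruses. It had 60, 33.3 and 97.9 CPM in B7hi HDM, against 50.2, 52.7 and 47.4 CPM in B7low HDM, and 80.1 and 28.2 CPM in the B7hi saline libraries, against 15.7 and 10.03 CPM in B7low saline. The separation lay with saline, where both B7hi libraries were above both B7low libraries, and the HDM groups overlapped. The averaged log2 fold change was 1.22 ± 0.36 (edgeR adjusted p = 0.0380), with 2.05 ± 0.60 within saline (adjusted p = 0.0523) and 0.39 ± 0.40 within HDM (adjusted p = 0.755). Without the 2 libraries that stood apart, the averaged call of Rsad2 was lost. Its neighbour Cmpk2 (chr12:26469204-26479837), a mitochondrial nucleotide kinase, had 30.2 and 21.9 CPM in B7hi saline and 10.5 and 11.7 CPM in B7low saline (log2 fold change 1.22 ± 0.62, adjusted p = 0.273). Ifit1 had 8 counts in B7hi saline and 1 in B7low saline, and Ifit2 and Ifit3 had 48 and 8 counts over all libraries. Reads of 25 nt may also have been split between Ifit3 and its near-identical copy Ifit3b.

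None of the OAS genes, whose products make the messenger 2-5A that activates RNase L, nor Eif2ak2 passed the test. Oasl1, a relative that represses Irf7 translation in mice, had 9.07 and 6.79 CPM in B7hi saline and was at 0 in both B7low saline libraries. With 25 counts against 0 it was at least 3.01-fold higher in B7hi saline (against 3 counts over the group, adjusted p = 0.0663), while with HDM the groups overlapped. Eif2ak2, the double-stranded RNA kinase PKR, had 32.5 and 22.97 CPM in B7hi saline and 62.9 and 124 CPM in B7low saline (log2 fold change -1.76 ± 0.60, adjusted p = 0.0990). Its 2 highest values, 133 CPM in B7hi HDM 2 and 124 CPM in B7low saline 2, were in the 2 libraries with the most Kcnq1ot1, whose part in the result was not tested. Oas3, which makes 2-5A on long double-stranded RNA, had 15.6, 7.83 and 28.8 CPM in B7hi HDM and 1.36, 13.7 and 3.16 CPM in B7low HDM, groups that overlapped (log2 fold change 1.47 ± 0.76, adjusted p = 0.422). Oasl2, a relative of Oasl1, had an averaged log2 fold change of 0.05 ± 0.37 (adjusted p = 0.954). Oas1a may share reads with its close copies.

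The 4 cytosolic sensors gave no call. Ddx58 (RIG-I) was at 70.95 ± 24.5 CPM in B7hi HDM and 76.5 ± 8.41 CPM in B7low HDM (SD, n = 3 each), and 65.6 ± 15.2 CPM in B7hi saline and 75.8 ± 33.8 CPM in B7low saline (SD, n = 2 each). Ifih1 (MDA5) was at 17.7 ± 4.51 CPM in B7hi HDM and 25.5 ± 17.7 CPM in B7low HDM. Dhx58 (LGP2), which modulates the other two, had 2.27 and 6.79 CPM in B7hi saline and 8.74 and 31.8 CPM in B7low saline (log2 fold change -2.09 ± 0.84, adjusted p = 0.155). Zbp1, a sensor of Z-form nucleic acid, had 39 counts in B7hi saline and 3 in B7low saline, a ratio of 4.70 (exact 95% counting interval 1.49 to 23.8).

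The transcription factors split. Irf1 (chr11:53770014-53778374) had 100.01, 272 and 381 CPM in B7hi HDM, against 168, 205 and 164 CPM in B7low HDM, and 159 and 339.9 CPM in the B7hi saline libraries, against 69.9 and 60.2 CPM in B7low saline. Both B7hi saline libraries were above both B7low saline ones, while with HDM the lowest B7hi library was below all of B7low. The log2 fold change was 1.94 ± 0.53 with saline (edgeR adjusted p = 0.0469) and 1.21 ± 0.33 averaged over challenges (adjusted p = 0.0323). Without the 2 libraries that stood apart the adjusted p was 0.259 and 0.182 in the same order. The 2 highest values, 381 CPM in B7hi HDM 3 and 339.9 CPM in B7hi saline 2, were in the 2 libraries with the most T cell marker transcripts, whose part in the result was not tested. These libraries also had the most Ccr9 (68.5 and 101 CPM).

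Stat2 (chr10:128270559-128292849) was lower in B7hi cells, where its values lay close together but rested on only 12 to 39 counts a library. It had 23.8, 23.5 and 24.7 CPM in B7hi HDM, against 43.4, 65.04 and 68.9 CPM in B7low HDM, and 19.6 and 20.4 CPM in the B7hi saline libraries, against 22.7 and 31.8 CPM in B7low saline. The groups did not overlap within either challenge, but the highest B7hi HDM value was above the lowest B7low saline one. The log2 fold change with HDM was -1.31 ± 0.33 (edgeR adjusted p = 0.0433) and the averaged one -0.88 ± 0.27 (adjusted p = 0.0475). Without the 2 libraries that stood apart these were -1.32 (adjusted p = 0.0692) and -0.76 (adjusted p = 0.149). In B7low HDM the highest Stat2 value was in the library with the lowest B cell marker sum (76.5 CPM) and the lowest in the library with the highest sum (542 CPM). These are 3 libraries, and the part of B cell transcripts in the Stat2 result was not tested.

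Irf9, which binds DNA within ISGF3, had 57.9 ± 14.7 CPM in B7hi HDM and 68.9 ± 17.5 CPM in B7low HDM (SD, n = 3 each), and 48.98 ± 0.870 CPM in B7hi saline and 35.9 ± 1.29 CPM in B7low saline (SD, n = 2 each). It was not called. Irf7, the factor that amplifies type I interferon, spread widely within groups, from 6.69 CPM in B7low saline 2 to 87.2 CPM in B7low HDM 2.

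Of the 2 genes of the ISG15 system, Usp18 was called. Usp18 (chr6:121245906-121270917), a protease that removes ISG15 and restrains IFNAR signalling, had 18.8, 13.7 and 41.1 CPM in B7hi HDM, against 32.5, 46.2 and 47.4 CPM in B7low HDM, and 16.6 and 19.8 CPM in the B7hi saline libraries, against 50.7 and 40.1 CPM in B7low saline. One B7hi library, HDM 3, lay within the B7low range. The averaged log2 fold change was -1.02 ± 0.32 (edgeR adjusted p = 0.0488) and the adjusted p was 0.0721 without the 2 libraries that stood apart. Isg15, the ubiquitin-like modifier itself, had 15, 5.87 and 13.01 CPM in B7hi HDM and 17.6, 22.8 and 9.48 CPM in B7low HDM, groups that overlapped, and 11.3 and 2.61 CPM in B7hi saline and 22.7 and 26.8 CPM in B7low saline, groups that did not. Its averaged log2 fold change of -1.17 ± 0.47 did not pass (adjusted p = 0.126).

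Of the 6 interferon-induced GTPases, which attack the vacuoles of intracellular microbes, Gbp3 was called. Gbp3 (chr3:142560026-142573209) had 20, 5.87 and 26.03 CPM in B7hi HDM, against 18.98, 9.76 and 3.16 CPM in B7low HDM, and 21.2 and 15.7 CPM in the B7hi saline libraries, against 1.75 and 0 CPM in B7low saline. Only the saline groups stood apart, with 58 counts in B7hi and 1 in B7low, a ratio of 21.0 (exact 95% counting interval 3.61 to 842). The averaged log2 fold change of 2.56 ± 0.72 passed (edgeR adjusted p = 0.0287), and its size depends on that count. Without the 2 libraries that stood apart the adjusted p was 0.0605. Gbp2, beside it on chromosome 3, had an averaged log2 fold change of 0.79 ± 0.34 (adjusted p = 0.159) and Gbp7, also beside it, -0.10 ± 0.20 (adjusted p = 0.798). Irgm1, Igtp and Ifi47 had averaged values of -0.26, -0.22 and 0.17 and did not pass. Short reads may have been split among the Gbp genes.

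None of the 9 other effectors passed. Samd9l came nearest, with 114, 114 and 164 CPM in B7hi HDM, against 241, 247 and 229 CPM in B7low HDM, groups that did not overlap. Its log2 fold change was -0.86 ± 0.28 with HDM (edgeR adjusted p = 0.125) and -0.65 ± 0.22 averaged over challenges (adjusted p = 0.0671), and DESeq2 called the averaged one. Trim30a, an inflammation-restraining TRIM protein with close copies in its cluster, had 0.01 ± 0.26 averaged over challenges. Isg20, Rtp4, Xaf1, Parp14, Ifi35, Ifi44 and Ifi27l2a had averaged log2 fold changes between -0.62 and 1.15 and adjusted p of at least 0.282.

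**Figure D2:**
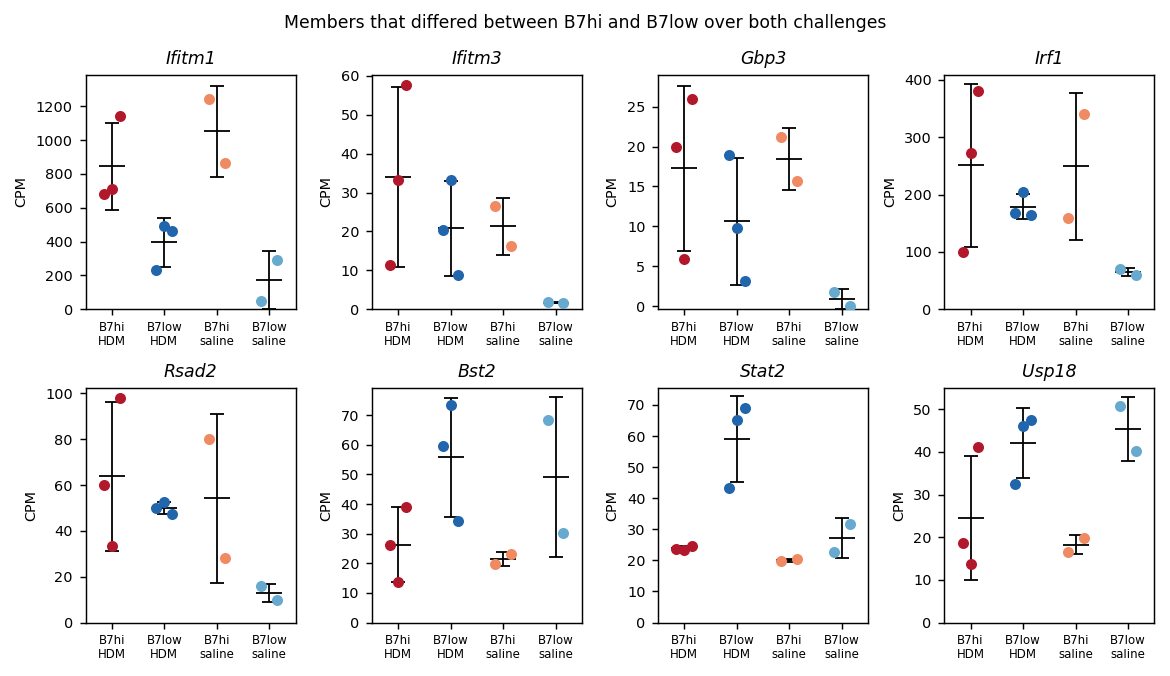
CPM in each library (points) with the mean and SD (bars) for the 8 genes called between populations, by group. Ifitm1 is at 681 CPM or more in all 5 B7hi libraries and at 492 CPM or less in all 5 B7low ones, whereas the other 7 genes overlap between the populations.

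These calls were close to the threshold and several rested on single libraries. In 10 fits that each left out 1 library, the averaged call of Ifitm1 was lost only without B7hi saline 1 or 2 (highest adjusted p 0.0872). That of Gbp3 was lost in 5, without B7hi saline 1 or 2, B7low saline 2, B7hi HDM 3 or B7low HDM 2 (highest adjusted p 0.1003). Bst2 kept its call only without B7low saline 2, B7hi HDM 3 or B7low HDM 3, and Ifitm3 only without B7hi saline 2, B7hi HDM 1 or B7low HDM 2. Irf1 kept it only without B7hi saline 1 or B7hi HDM 1, Rsad2 only without B7hi saline 2 or B7hi HDM 2, Stat2 only without B7low HDM 1 and Usp18 only without B7hi HDM 3. The highest adjusted p in these fits was 0.22 for Bst2, 0.128 for Ifitm3, 0.1395 for Irf1, 0.287 for Rsad2, 0.171 for Stat2 and 0.185 for Usp18. The saline call of Irf1 held only without B7hi saline 1, B7hi HDM 1 or B7hi HDM 3 (highest adjusted p 0.288, without B7hi saline 2), and the HDM call of Stat2 only without B7low saline 1 or 2 (highest 0.141). The direction was kept in every one of these fits.

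**Figure D3:**
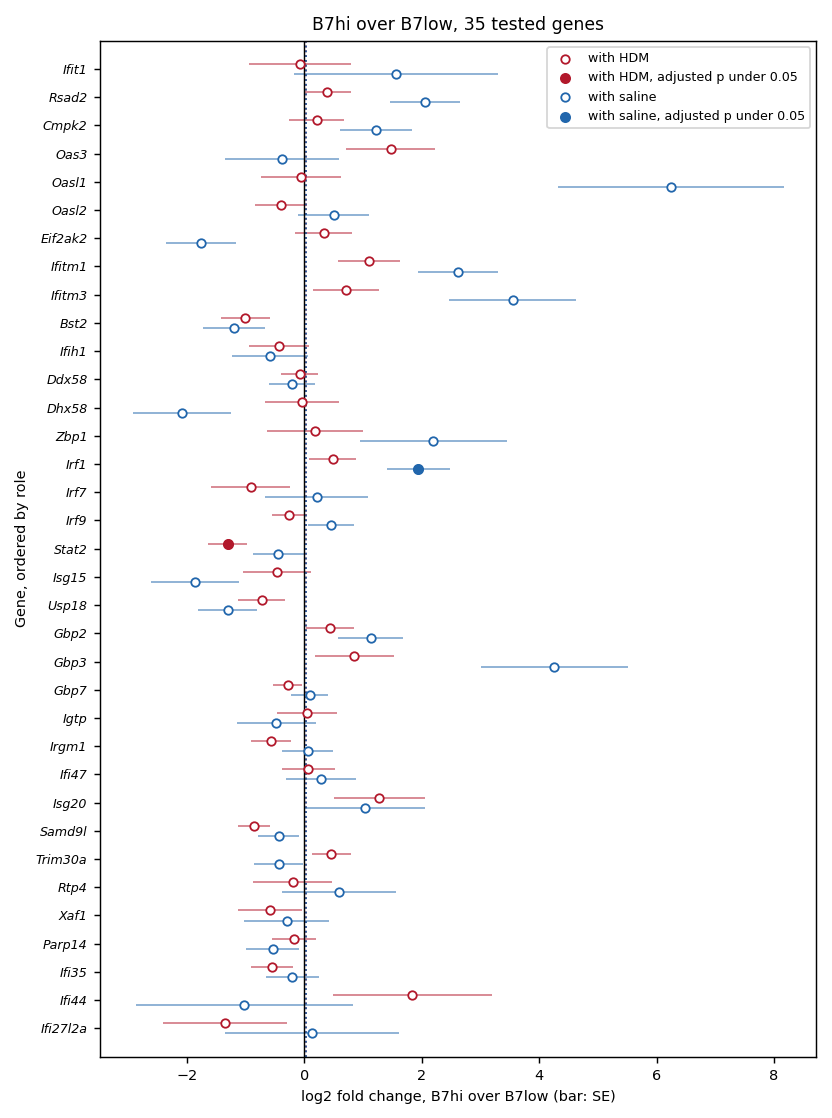
Log2 fold change of B7hi over B7low (points) with its SE (bars) for the 35 tested genes, with HDM and with saline, filled where the adjusted p was under 0.05. Irf1 with saline and Stat2 with HDM are the filled points, and the dotted lines are the medians of all tested genes (0.03 in both).

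HDM against saline gave no call in the set. The number called was 0 of 35 in B7hi, 0 in B7low and 0 averaged over the populations by edgeR, by DESeq2 and by limma-voom, against 0.00949% of all tested genes by edgeR in each (1 gene higher and 0 lower). An unadjusted p under 0.05 was reached in B7low by 10 genes, all higher with HDM, against 6.11% of all genes higher and 2.96% lower. In B7hi it was reached by 2 genes, both higher (2.77% of all genes higher and 1.36% lower), and averaged over populations by 9, all higher (4.75% higher and 1.72% lower). By DESeq2 those numbers were 9, 2 and 8, and by limma-voom 3, 1 and 5.

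The log2 fold changes leaned upward. Averaged over the populations, 33 of 35 were above 0, against 55.6% of all tested genes, and the median was 0.60, against 0.05. In B7low cells 27 of 35 were above 0 (52% of all genes) with a median of 0.72, against 0.03. In B7hi cells 27 of 35 were above 0 (51.6% of all genes) with a median of 0.35, against 0.02. When 1 library was left out, the median ran from 0.28 to 0.69 averaged over populations, from 0.56 to 0.92 in B7low and from -0.09 to 0.55 in B7hi. Without B7hi HDM 3 the averaged median was 0.28, with 25 of 34 genes above 0, and the B7hi median was -0.09, with 16 of 34 above 0, so the lean in B7hi cells rested on that library. The lowest B7low median, 0.56, with 22 of 34 above 0, came without B7low HDM 2. Markers of B cells were also higher with HDM in B7low cells, where their sum was 542, 341 and 76.5 CPM in B7low HDM against 17.5 and 21.7 CPM in B7low saline. Of the 4 markers, Ms4a1 had a log2 fold change of 6.20 and Cd79b 3.80 (edgeR adjusted p = 0.191 and 0.211), with groups that did not overlap. The share of Rn45s was lower in the same comparison, at 21.9% to 24.9% in B7low HDM against 27.2% and 28.9% in B7low saline. The part of either in the B7low values given here and below was not tested. Genes measured in the same libraries are not independent of each other, and both B7low saline libraries are shallow. The HDM and saline libraries did not overlap for 15 genes higher and 2 lower in B7low (13.2% and 10.7% of all genes) and for 3 higher and 0 lower in B7hi (10.2% and 10.4%).

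By role, all 4 transcription factors and all 6 GTPases were above 0 in B7low cells. So were Ifit1, Rsad2 and Cmpk2, and also Ifitm1, Ifitm3 and Bst2. In the same cells 3 of 4 sensors, 6 of 9 other effectors and 2 of 4 tested OAS and PKR genes were above 0. Both genes of the ISG15 system, Isg15 and Usp18, were below 0 there (log2 fold changes between -0.58 and -0.10, neither called). Irf1 averaged 179 ± 22.4 CPM in B7low HDM (SD, n = 3) and 65.1 ± 6.89 CPM in B7low saline (SD, n = 2), a log2 fold change of 1.46 ± 0.50 (edgeR adjusted p = 0.427). Stat2 gave 1.12 ± 0.40 (adjusted p = 0.420) and Irf9 0.95 ± 0.36 (adjusted p = 0.454) in the same cells. In B7hi cells Stat2 had 23.8, 23.5 and 24.7 CPM with HDM and 19.6 and 20.4 CPM with saline, groups that stood apart by a small step (log2 fold change 0.26 ± 0.38, adjusted p = 0.999).

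Of the antiviral effectors, Rsad2 had 50.2, 52.7 and 47.4 CPM in B7low HDM, against 15.7 and 10.03 CPM in B7low saline. Its log2 fold change was 1.95 ± 0.58 (edgeR adjusted p = 0.318). Oasl1 had 5.42, 8.46 and 20.2 CPM in B7low HDM and was at 0 in both B7low saline libraries. With 49 counts against 0 it was at least 4.95-fold higher with HDM (against 3 counts over the group, adjusted p = 0.311). Ifitm3 had 80 counts in B7low HDM and 2 in B7low saline, a ratio of 12.1 (exact 95% counting interval 3.25 to 102). Ifit1 had 51 counts and 1 count, a ratio of 15.5 (2.65 to 623), of which 24.7 CPM lay in B7low HDM 2 and 1.36 CPM in B7low HDM 1. Gbp3 had 34 counts and 1 count in the same order, a ratio of 10.3 (1.73 to 419). These wide intervals come from the few counts of the shallow B7low saline libraries and cover counting error only.

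Irgm1, a regulator of other immunity-related GTPases, had 88.1, 125 and 79.6 CPM in B7low HDM, against 47.2 and 48.5 CPM in B7low saline (log2 fold change 1.03 ± 0.41, edgeR adjusted p = 0.474). Oasl2 had 21.7, 48.1 and 20.9 CPM in B7low HDM, against 13.99 and 11.7 CPM in B7low saline (log2 fold change 1.25 ± 0.57, adjusted p = 0.541). Gbp7 had 89.5, 130.1 and 105 CPM in B7low HDM, against 62.9 and 88.6 CPM in B7low saline. Eif2ak2 and Parp14, an ADP-ribosyltransferase, were the 2 genes with lower, non-overlapping values in B7low HDM (log2 fold changes -0.88 and -0.65, neither called). In B7hi cells the smallest unadjusted p values belonged to Dhx58 (log2 fold change 1.76 ± 0.77) and Eif2ak2 (1.20 ± 0.56), both with an edgeR adjusted p of 0.999. Next were Ifit1 (1.97 ± 1.11), Trim30a (0.66 ± 0.37) and Ifi44 (2.45 ± 1.56), with the same adjusted p. For Eif2ak2 the log2 fold change was 0.34 without B7hi HDM 2 and B7low saline 2.

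**Figure D4:**
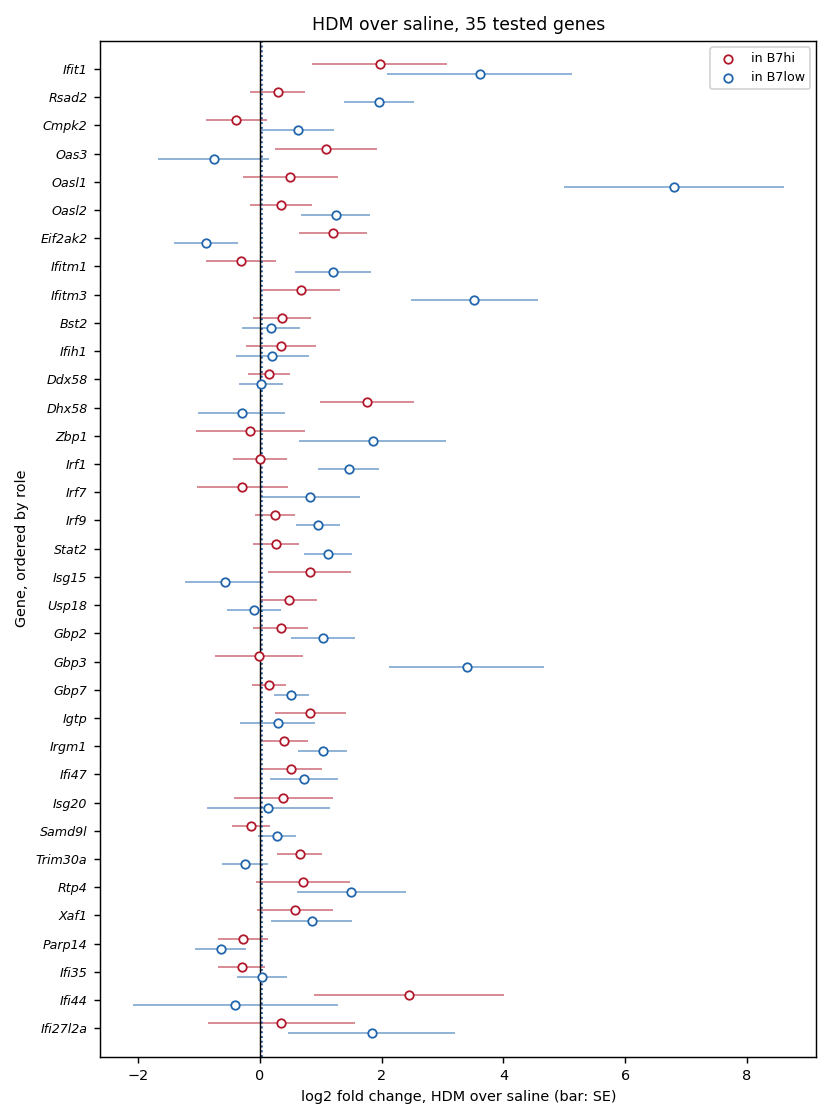
Log2 fold change of HDM over saline (points) with its SE (bars) for the 35 tested genes in B7hi and in B7low cells. No point is filled, since none had an adjusted p under 0.05, and most lie right of 0, with medians of 0.35 in B7hi and 0.72 in B7low.

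Whether the HDM effect differed between B7hi and B7low cells was tested as an interaction, the effect in B7hi minus that in B7low. It called 0 of the 35 genes and 0% of all tested genes by edgeR, and 0 of the 35 by DESeq2 and limma-voom. An unadjusted p under 0.05 was reached by 1 gene with a positive value (Eif2ak2) and 5 with negative values (Oasl1, Gbp3, Rsad2, Ifitm3 and Irf1), against 3.76% and 4.79% of all genes. In the set 13 of 35 values were above 0 (47.9% of all genes), and 7 of 34 without B7hi HDM 3. For Rsad2 the value was -1.66 ± 0.73 (edgeR adjusted p = 0.544), for Irf1 -1.46 ± 0.66 (adjusted p = 0.577) and for Eif2ak2 2.08 ± 0.77 (adjusted p = 0.496), and the Eif2ak2 value was 0.65 without the 2 libraries that stood apart. The 5 negative genes all had their lowest group mean in B7low saline, the group that enters both the population difference with saline and the HDM effect in B7low, so those results share it.

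The interferons themselves were close to undetected. Of 21 interferon genes in the table, 19 had no count in any library. Many of the interferon genes are Ifna genes that lie together on chromosome 4. Reads of 25 nt may not tell close copies apart, and how such reads were counted is not given. Ifng, type II interferon, had 7 counts over 4 libraries and Ifnk 1 count, so 8 counts in all. Taken library by library, a count of 0 allows up to 1.57 CPM in the deepest and 5.87 CPM in the shallowest. For a gene at 0 in every library, the limit over all libraries together is lower than these.

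Upstream of the target genes, 4 of 6 receptor genes were called between the populations. With saline and averaged over challenges, 1 was higher and 3 were lower in B7hi cells (66.7%, against 6.54% and 11.9% of all tested genes), and 1 was lower with HDM. Ifngr1, the ligand-binding chain for interferon gamma, had 219, 247 and 329 CPM in B7hi HDM, against 159.9, 154 and 209 CPM in B7low HDM, and 438 and 435 CPM in the B7hi saline libraries, against 180.1 and 102 CPM in B7low saline. Its log2 fold change was 1.63 ± 0.32 with saline (edgeR adjusted p = 0.00513) and 1.12 ± 0.20 averaged (adjusted p = 0.00164). All 5 B7hi libraries were above all 5 B7low libraries.

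The partner chain went the other way. Ifngr2 had 38.8, 19.6 and 19.9 CPM in B7hi HDM, against 52.9, 33.2 and 30.3 CPM in B7low HDM, and 16.6 and 17.2 CPM in the B7hi saline libraries, against 69.9 and 55.2 CPM in B7low saline (averaged log2 fold change -1.19 ± 0.30, adjusted p = 0.0157). Ifnar2, the type I interferon chain that binds ligand most tightly, had 184, 99.8 and 107 CPM in B7hi HDM, against 244, 204 and 222 CPM in B7low HDM, and 144 and 106 CPM in the B7hi saline libraries, against 392 and 293 CPM in B7low saline. All 5 B7hi values were below all 5 B7low values, with an averaged log2 fold change of -1.11 ± 0.21 (edgeR adjusted p = 0.00218). Il10rb, a chain shared by the receptors for interferon lambda and interleukin 10, had 36.9, 33.3 and 30.8 CPM in B7hi HDM, against 119, 124 and 103 CPM in B7low HDM, and 30.99 and 36.5 CPM in the B7hi saline libraries, against 166 and 174 CPM in B7low saline. It was lower with saline (-2.32 ± 0.31, adjusted p = 0.000282) and with HDM (-1.77 ± 0.25, adjusted p = 0.000731).

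Ifnar2 (chr16:91372783-91405589), Il10rb (chr16:91406164-91425834), Ifnar1 (chr16:91485238-91507441) and Ifngr2 (chr16:91547072-91565623) are neighbours on chromosome 16, and Ifngr1 lies on chromosome 10. Ifnar1 was not called (averaged log2 fold change -0.38 ± 0.39, edgeR adjusted p = 0.589), and its 2 highest values, 393 CPM in B7hi HDM 2 and 344 CPM in B7low saline 2, were again in the libraries with the most Kcnq1ot1. The remaining receptor gene, Ifnlr1, was not called averaged over challenges. It was near the floor, with 1 count in B7hi saline, 6 in B7low saline and 6 in B7hi HDM. The averaged calls of Ifngr1, Ifnar2 and Il10rb held under every alternative and every left-out library, and that of Ifngr2 was lost in 3 of the 10 fits without 1 library (highest adjusted p 0.0747, without B7hi saline 1). None of the 6 receptor genes was called for HDM against saline or for the interaction.

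**Figure D5:**
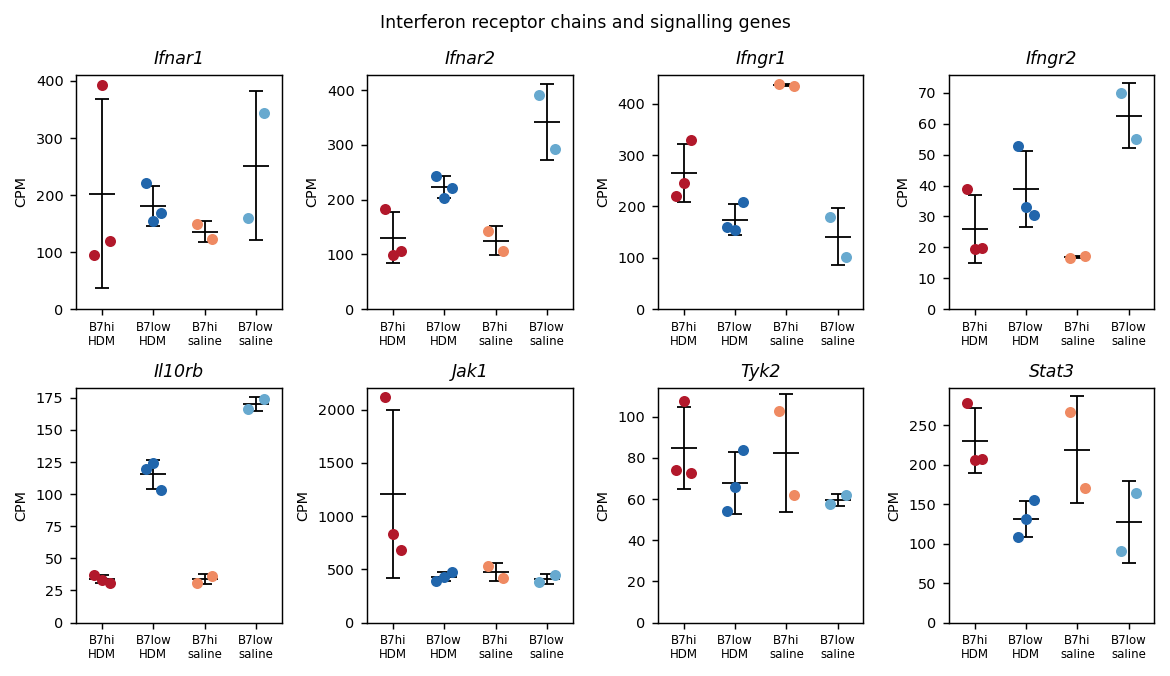
CPM of 5 receptor genes and of Jak1, Tyk2 and Stat3 in each library (points) with the mean and SD (bars), by group. Ifngr1 is higher and Ifnar2 and Il10rb are lower in every B7hi library than in any B7low library, while the Ifnar1 values overlap.

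Of 18 signalling and feedback genes, 0 were called with saline, 1 higher and 1 lower with HDM, and 1 higher and 2 lower averaged over challenges. These shares of 0%, 11.1% and 16.7% stand against 6.54%, 2.84% and 11.9% of all tested genes. Jak1, the kinase shared by all interferon receptors, had 2117, 832 and 677 CPM in B7hi HDM and 389, 429 and 478 CPM in B7low HDM (log2 fold change 1.49 ± 0.35, edgeR adjusted p = 0.0324). One library, B7hi HDM 1, stood far above the rest, and the call was lost in 6 of the 10 fits without 1 library. Irf8, a factor of B cells and myeloid cells, had 2 counts in B7hi HDM and 81 in B7low HDM, so it was 37.5-fold lower in B7hi (exact 95% counting interval 10.05 to 315). The B cell marker sum was high in the same B7low HDM libraries (542, 341 and 76.5 CPM), and its part in the result was not tested. The HDM call of Irf8 and its averaged call (-3.42 ± 0.96, adjusted p = 0.0277) were each lost in 5 of the 10 fits without 1 library, and without B7low saline 2 the averaged value was -0.58 (adjusted p = 0.941). Stat3 was higher (0.79 ± 0.22, adjusted p = 0.0252) and Irf5 lower (-1.70 ± 0.42, adjusted p = 0.0135) in B7hi cells averaged over challenges, calls lost in 5 and 2 of the 10 fits in that order. Tyk2 (0.37 ± 0.23, adjusted p = 0.343) and the feedback inhibitor Socs1 (-0.49 ± 0.48, adjusted p = 0.575) were not called.

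Socs3, another feedback inhibitor, had the smallest p of that list for HDM against saline. It had 50.6, 21.5 and 47.3 CPM in B7hi HDM, against 2.27 and 5.74 CPM in B7hi saline, and 25.8, 39.03 and 7.58 CPM in B7low HDM, against 10.5 and 0 CPM in B7low saline. The groups did not overlap in B7hi cells, and the log2 fold change averaged over populations was 2.73 ± 0.63 (edgeR adjusted p = 0.373). It did not pass.

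Of 17 tested nucleic acid sensors and adaptors, Unc93b1, which carries Toll-like receptors to endosomes, was lower in B7hi with HDM, at 8.13, 19.6 and 7.53 CPM, against 73.2, 69.6 and 30.3 CPM in B7low HDM. Its log2 fold change was -2.42 ± 0.62 (edgeR adjusted p = 0.0456), and the B cell marker sum moved with it in the same libraries, its part in the result not tested. Leaving out 1 library ended that call in 5 of 10 fits. That was 1 gene of 17 with HDM (5.88%, against 2.84% of all tested genes), and 3 were called averaged over challenges (17.6%, against 11.9%). Averaged over challenges, Aim2 (0.88 ± 0.28) and Tmem173, which encodes STING (0.95 ± 0.30), were higher and Tlr4 (-2.19 ± 0.58) lower in B7hi cells, with adjusted p of 0.0496, 0.0493 and 0.0207 in that order. The Aim2 call was lost in all 10 fits without 1 library, the Tmem173 call in 9 and the Tlr4 call in 3.

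A further list of 46 tested interferon-stimulated genes outside the set had 6 higher and 0 lower in B7hi cells averaged over challenges (13%, against 11.9% of all tested genes), 4 higher with saline (8.7%, against 6.54%) and 0 with HDM. All tested genes divide as 5.8% higher and 6.08% lower averaged and 2.91% higher and 3.64% lower with saline. Ly6e, a membrane protein that shapes virus entry, had 990.1, 799 and 990.4 CPM in B7hi HDM, against 529.97, 641 and 559 CPM in B7low HDM, and 747 and 712 CPM in the B7hi saline libraries, against 278 and 309 CPM in B7low saline. It gave 1.00 ± 0.17 averaged over challenges (edgeR adjusted p = 0.000828) and held under every alternative. The others were Ifitm2, Tnfsf10 (the death ligand TRAIL), Cxcl10 (a T cell-attracting chemokine), Sp100 and Ifi203, whose averaged calls were lost in 3, 2, 8 and 8 of the 10 fits without 1 library for the last 4 in that order. Cxcl10 had 30 counts in B7hi saline and 0 in B7low saline, so it was at least 3.61-fold higher there (against 3 counts over the group). For HDM against saline, none of the 46 was called, and 35 had log2 fold changes above 0 averaged over populations, with a median of 0.28, against 0.05 for all genes.

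Of 20 tested genes of MHC class I and the immunoproteasome, which interferon gamma induces, Psmb9 was called, 5% of the list, against 6.54% of all tested genes with saline and 11.9% averaged. It had 36.9, 37.2 and 60.3 CPM in B7hi HDM, against 35.2, 53.98 and 44.9 CPM in B7low HDM, groups that overlapped, and 63.5 and 67.3 CPM in the B7hi saline libraries, against 12.2 and 18.4 CPM in B7low saline. The log2 fold change was 2.08 ± 0.45 with saline (edgeR adjusted p = 0.0106) and 1.05 ± 0.28 averaged (adjusted p = 0.0205). The averaged call was lost in 4 of the 10 fits without 1 library. In B7low cells, HDM against saline gave 1.55 ± 0.43 for it (adjusted p = 0.311), not called.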

How the data were processed

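Bulk RNA-seq of sorted mast cells was deposited as whole-number counts per gene symbol, 1 column per library, and the labels put the 10 libraries in 4 groups. Per the labels' protocols, libraries were made with SmartSeq2 from poly(A)+ mRNA and sequenced as paired reads of 25 nt. TopHat2 2.0.10, Cufflinks 2.2.1, DESeq2 and the build mm10 are listed, without roles, in the submitters' processing notes. How reads were counted, on which annotation and whether by strand is not given in the sources used here, so reads of antisense partners and close copies cannot be told apart.

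Counts were scaled by TMM and fitted in edgeR 4.0.16 (R 4.3.3) by robust quasi-likelihood, as 4 group means over the 10 libraries, on the 10533 genes that passed filterByExpr. The 7 contrasts were tested two-sided and Benjamini-Hochberg adjusted over those genes, with a threshold of 0.05. The common biological coefficient of variation was 0.359. The SE is approximate (log2 fold change divided by the root of F, without its sign). Where a group had 0 counts, folds are bounds against 3 counts over the group, and with 1 to 3 counts they are ratios with exact 95% intervals. Coordinates are from GENCODE M21 on GRCm38 (mm10).

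Alternatives were DESeq2 size factors, library size alone, DESeq2 1.42.0, limma-voom (limma 3.58.1), other count filters, the compared groups alone, replicate blocks and left-out libraries. The scripts were checked on simulated data with 200 changed genes. Chi-square statistics between libraries of a group were 6.54 to 11 times their degrees of freedom, and no library was treated as a copy of another.

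The set and the gene lists were chosen with earlier results of these data known. Every gene of the set is named. Those described with values passed the threshold in some contrast, were among the 5 smallest p in one, or were among the 8 highest in mean CPM. From the other lists, called genes, the 3 smallest p and the receptors and main kinases are named where described.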

Additional observations from a re-analysis of the deposited data

How the results depend on the processing

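No called gene of the set, and none of the 5 with the smallest p in each comparison, changed direction in any alternative. Of all 35 tested genes, 11 changed direction in at least 1 alternative for the population difference with saline, 16 with HDM and 10 averaged, 17 for HDM against saline in B7hi, 12 in B7low and 11 averaged, and 11 in the interaction. For B7hi against B7low with saline, where 1 gene of the set was called, the number was 0 with DESeq2 size factors, 5 with library size alone, 4 with DESeq2, 7 with no count filter, 2 with at least 5 CPM in 2 libraries, 0 with only the compared groups in the fit, and 0 to 3 when 1 library was left out. With HDM (1 called) it was 0 without both B7low saline 2 and B7hi HDM 2 and 0 to 1 when 1 library was left out. Averaged over challenges (8 called) it was 5 with library size alone, 1 with limma-voom (Ifitm1), 3 without both of those libraries, and 1 to 4 when 1 library was left out. For HDM against saline, 3 genes (Ifitm3, Irf1 and Rsad2) were called in B7low and 1 (Ifitm3) averaged over populations with no count filter, against 0, and the numbers in B7hi and in the interaction stayed at 0 in every alternative. Over all genes, calls with saline numbered 1078 with no filter against 689, and with HDM 507 by DESeq2 and 548 with no filter against 299. As shares of all genes, the saline calls were 6.18% with DESeq2 size factors, 9.16% with library size alone and 8.61% with DESeq2, against 6.54%. They were 5.45% with no filter, 5.96% with the 5 CPM filter and 4.45% with only the compared groups. The tested genes of the set then numbered 41, 38 and 28 in that order, against 35. Averaged over challenges the share was 13.7% with library size alone, 9.83% with limma-voom and 11.9% in the main fit. For HDM against saline, calls over all genes numbered 55 in B7hi, 19 in B7low and 26 averaged by DESeq2, against 1 in each. With no filter the shares of all genes were 0.566% in B7low and 0.419% averaged, against 0.00949% in each. With saline, limma-voom called Ifitm1 and not Irf1 (4.78% of all genes called). The fit without both B7low saline 2 and B7hi HDM 2 also called Ifitm1 and not Irf1 with saline. Its averaged calls were Bst2, Ifitm1 and Samd9l, of which Samd9l was not called in the main fit. The causes of these shifts were not tested.

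A replicate block on the labels' numbers gave 3 calls in the set with saline, 0 with HDM and 6 averaged over challenges. The shares of all genes called were 6.76%, 3.37% and 11.6% in that order. A replicate block within challenge gave 2, 0 and 6 (6.04%, 2.97% and 10.9% of all genes). Same-numbered B7hi and B7low libraries had correlations of their deviations from group means of 0.0219, -0.112 and -0.0491 with HDM and 0.0413 with saline. With 2 or 3 libraries a group these values cannot decide whether same-numbered libraries are paired, and the labels do not say. With 652736 and 639906 total counts, the B7low saline libraries limit every result that sets them against another group.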

Other observations

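The 2 libraries with the most Kcnq1ot1, B7hi HDM 2 and B7low saline 2, held the highest value of 3 of the 41 genes each. B7low HDM 3 and B7low saline 1 also held 3 each, B7hi HDM 3 and B7low HDM 2 held 13 each, and the rest held 0 to 2. Eif2ak2 had 133 CPM in B7hi HDM 2 and 124 CPM in B7low saline 2, against 22.97 to 62.9 CPM in the other 8, and Dhx58 had its highest value, 31.8 CPM, in B7low saline 2. Trim30a had 155 CPM in B7hi HDM 2, against 48.0 to 112 CPM in the others, of which B7low saline 2 had 100.3 CPM. B7hi HDM 2 and B7low saline 2 had 525983 and 639906 total counts.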
